A study of Rattus norvegicus with 9 samples.

Results

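Lectins are proteins that read sugar chains. C-type lectins bind carbohydrates or other ligands through a calcium-dependent fold, and many sit on macrophages and dendritic cells, where they take up glycoproteins and sense microbes and dead cells. Galectins are small soluble proteins that bind β-galactosides on cell surfaces and in the matrix, and siglecs are sialic acid-binding receptors, mostly on leukocytes, many of which dampen signalling. In the heart, galectin-3 is known as a macrophage and fibrosis marker and galectin-1 as a product of stromal cells. The genes described here are all those in the count table whose symbol begins with Clec, Siglec or Lgals followed by the family number or name, with Cd209, or is Asgr1 or Asgr2. The rule used names only, no measured value, and found 46 of the 17337 genes of the table: 32 C-type lectin genes, 10 Lgals genes (9 galectins and Lgals3bp, which encodes a galectin-3-binding glycoprotein) and 4 siglec genes.

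RNA was sequenced from 9 cultures of cardiac fibroblasts, the connective-tissue cells of the heart, 3 at each of 3 ages of Sprague Dawley rats: fetuses at embryonic day 18, newborns on postnatal day 1, and adults of 7 weeks. The cells of every group were freshly isolated (passage 0) and grown to confluency in medium with 10% serum and 0.1 mM ascorbic acid. No genotype or drug differs between the groups, the labels name no sort, and they do not say whether a flask came from 1 animal or from a pool. The p-values therefore measure the spread between these libraries, which may be technical. Levels are counts per 1000000 assigned counts on TMM-scaled library sizes (CPM), given in the order of replicates 1, 2 and 3, and where 1 value stands for an age it is the mean (± SD, n = 3). A gene was called between ages when its adjusted p in edgeR's quasi-likelihood test over all 11337 genes tested was under 0.05.

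Library totals ran from 13392825 to 22850491 counts, and the adult libraries were the shallowest. Markers of the labelled cell type were abundant: the 10 fibroblast markers summed to 26495 to 53252 CPM in fetal, 70674 to 76919 in neonatal and 26667 to 34608 in adult libraries. Transcripts of other cells were present as well. The 8 cardiomyocyte markers summed to 5252 to 6589 CPM in fetal, 3190.1 to 3509 in neonatal and 304 to 317 in adult libraries, with Csrp3 at 0 in adult cells. Of these, 8 of 8 were called lower in neonatal than in fetal cells, against 18.0% of all tested genes. Likewise 8 of 8 were called lower in adult than in neonatal cells, against 31.8%. The 12 macrophage markers (among them Csf1r, Cd68, Ptprc and C1qa) summed to 14, 14 and 64.7 CPM in the fetal, 168, 153 and 153 in the neonatal and 4004, 4929 and 5728 in the adult libraries. All 12 were called higher in adult than in fetal and neonatal cells, against 34.9 and 31.6% of all tested genes. In neonatal against fetal cells 9 of 12 were called higher, against 18.3% of all tested genes. Cd163 was at 0 in all fetal and neonatal libraries, so it passed the filter on low counts only through the adult ones. Its adult calls were thus partly fixed by the filter. The part of these markers in the lectin differences below was not tested, and in such bulk RNA fewer cells of a type and less RNA per cell cannot be told apart. Fetal replicate 3 stood apart: 6 epithelial markers summed to 369 CPM there against 49.8 and 49.8 in fetal replicates 1 and 2, and its macrophage sum was the highest of the fetal libraries. Its fibroblast marker sum was the lowest, at 26495 CPM against 53252 and 50095 in fetal replicates 1 and 2.

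Of the 46 genes, 23 passed the filter on low counts and were tested, and 8 of these (Asgr2, Clec2l, Clec4a, Clec4a2, Clec4a3, Clec4d, Clec4e and Siglec1) passed only through the adult libraries, so that their adult excess was partly fixed by the filter and is given below as a description only. Among the other 15, adult cells were called higher than fetal cells for 14 and lower for 1. Over all tested genes 70.5% were called, 34.9% were called higher and 35.5% lower in that comparison. Adult cells were called higher than neonatal cells for 10 of the 15, lower for 1 and not called for 4, against 63.5% of all genes called, 31.6% higher and 31.8% lower. Neonatal cells were called higher than fetal cells for 11 of the 15, lower for 1 and not called for 3, against 36.3% of all genes called, 18.3% higher and 18.0% lower. Libraries of both ages did not overlap for 71.8% (adult and fetal), 76.1% (adult and neonatal) and 57.4% (neonatal and fetal) of all tested genes, which is the background for each remark on overlap that follows. Each pair of these comparisons shares the libraries of 1 age, so they are not independent.

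**Figure D1:**
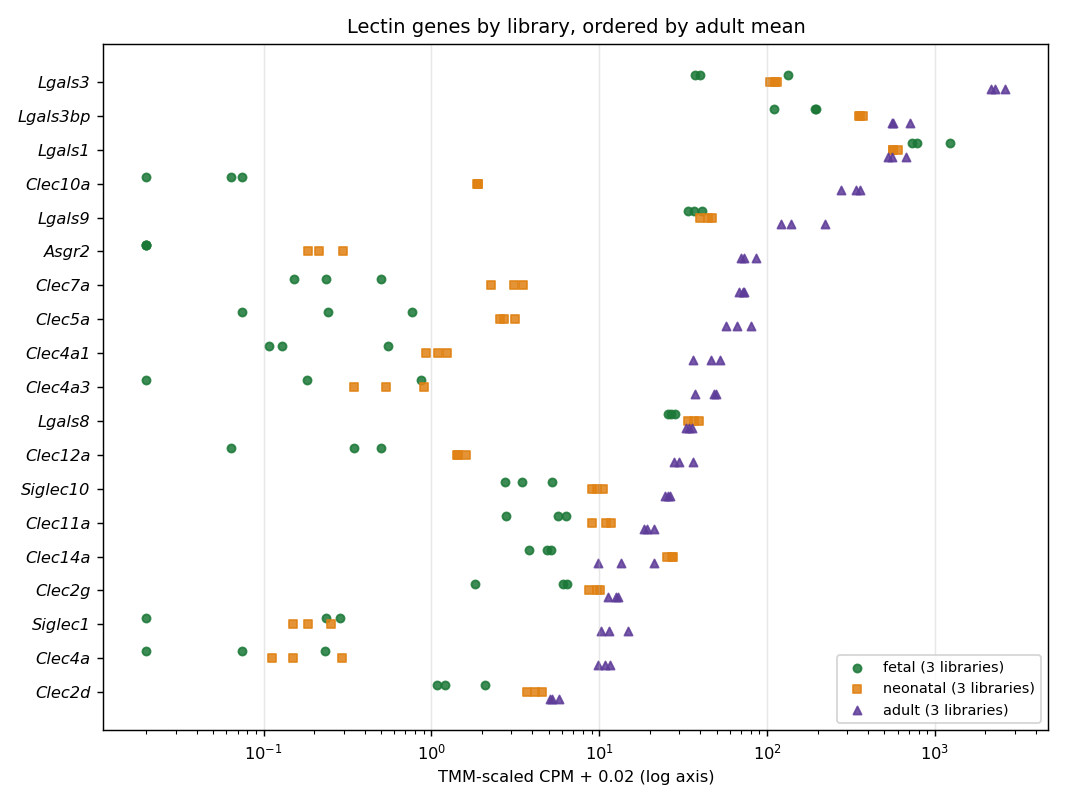
TMM-scaled CPM of the 19 lectin genes with a mean of at least 5 CPM at an age, by library, on a log axis after adding 0.02; each symbol is 1 library and the genes are ordered by their adult mean. Clec10a, for example, sits below 2 CPM in every fetal and neonatal library and between 274 and 357 CPM in adult ones, whereas Lgals1 and Lgals8 overlap between neonatal and adult libraries.

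The 10 Lgals genes, Lgals3bp included, took 97.8 to 98.6% of the family's counts in fetal and 81.9 to 83.9% in adult libraries, and their order differed between ages. Lgals1 encodes galectin-1, a dimeric galectin that cross-links surface glycans. It lay at 782, 731 and 1229.7 CPM in the fetal, 602, 563 and 566 in the neonatal and 524, 555 and 675 in the adult libraries. All 3 fetal libraries were above all others, fetal replicate 3 being the highest, and neonatal and adult libraries overlapped. Lgals1 (chromosome 7, 120153184 to 120156290, rn6) fell from fetal to neonatal cells (log2 fold change -0.66, SE 0.187, edgeR adjusted p = 0.023) and adult cells were likewise below fetal ones (log2 fold change -0.64, SE 0.187, edgeR adjusted p = 0.0119). The fetal-to-neonatal call did not hold without neonatal replicate 1, 2 or 3 (adjusted p 0.0628, 0.0781 and 0.0786, within 0.00237 to 0.0786 over its alternatives), and the difference was -0.39 without fetal replicate 3. The adult-to-fetal difference was -0.38 without that library.

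Lgals3 encodes galectin-3, the chimeric galectin that macrophages and activated fibroblasts secrete. Its level was 39.6, 37.0 and 134 CPM in fetal, 114, 104 and 112 in neonatal and 2634, 2284 and 2147 in adult libraries. The adult libraries were far above all others, and fetal replicate 3, the library rich in epithelial markers, lay above every neonatal library. Lgals3 (chromosome 15, 24153602 to 24165537) rose from neonatal to adult cells (log2 fold change 4.42, SE 0.493, edgeR adjusted p = 6.94e-05) and exceeded its fetal level in adult cells (log2 fold change 5.07, SE 0.509, edgeR adjusted p = 2.49e-05, or 5.94 without fetal replicate 3). Between neonatal and fetal cells it was not called (log2 0.65, SE 0.435, edgeR adjusted p = 0.268). Without fetal replicate 3 that difference was 1.52 and called (adjusted p 4.06e-07, within 4.06e-07 to 0.549 over its alternatives).

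Per kilobase of exon, where genes can be compared, the galectin-3 to galectin-1 ratio was 0.0271, 0.0270 and 0.0582 in the fetal libraries. It was 0.102, 0.0984 and 0.105 in the neonatal and 2.68, 2.20 and 1.70 in the adult libraries. Galectin-1 was thus the leading transcript in each fetal and neonatal library and galectin-3 in each adult one, and the ranges of the 3 ages did not overlap. Mean levels were 1807, 1140.5 and 1156 CPM per kilobase for Lgals1 and 74.1, 116 and 2484 for Lgals3 in fetal, neonatal and adult cells.

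**Figure D2:**
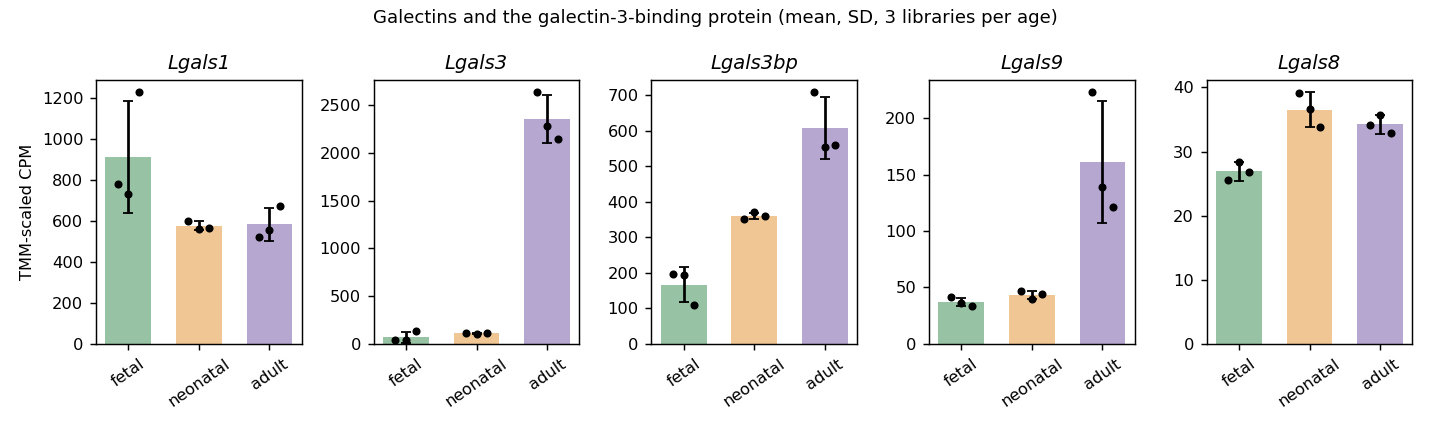
TMM-scaled CPM (linear axes from 0) of the 5 tested Lgals genes by age; bars are means of 3 libraries, whiskers the SD and points the libraries. Lgals3 reached 2355 CPM in adult cells against 110.0 in neonatal cells, while Lgals1 was highest in the fetal libraries.

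Lgals9 encodes galectin-9, a tandem-repeat galectin with 2 sugar-binding domains. It measured 41.2, 36.5 and 34.0 CPM in fetal, 46.8, 39.8 and 44.1 in neonatal and 223, 139 and 122 in adult libraries. Fetal and neonatal libraries overlapped (log2 0.23, SE 0.205, edgeR adjusted p = 0.412), and all adult libraries lay above them (adult against neonatal: log2 fold change 1.89, SE 0.208, edgeR adjusted p = 5.62e-05). Lgals8, the other tandem-repeat galectin tested, stayed within a narrow band of 25.5 to 39.2 CPM over the 9 libraries. It rose from fetal to neonatal cells (log2 fold change 0.44, SE 0.0822, edgeR adjusted p = 0.00353) and exceeded its fetal level in adult cells (log2 fold change 0.35, SE 0.0829, edgeR adjusted p = 0.00411), a call lost when libraries were scaled by their totals alone (adjusted p 0.0504, within 0.00139 to 0.0504 over its alternatives). Exons of Lgals8 overlap those of Heatr1 on the opposite strand, and the counting used no strand.

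Lgals3bp encodes a secreted, heavily glycosylated partner of galectin-3. Its values were 197, 193 and 110.0 CPM in fetal, 352, 371 and 359 in neonatal and 709, 555 and 560.4 in adult libraries, with no overlap between ages and fetal replicate 3 the lowest. It rose at both steps, from fetal to neonatal cells (log2 fold change 1.11, SE 0.203, edgeR adjusted p = 0.00342) and from neonatal to adult cells (log2 fold change 0.75, SE 0.201, edgeR adjusted p = 0.00915). Against Lgals3, whose difference was mostly between neonatal and adult cells, Lgals3bp had already reached 59.3% of its adult mean in neonatal cells and Lgals3 4.67%.

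The remaining 5 galectins, Lgals2, Lgals4, Lgals5, Lgals7 and Lgals12, had at most 9 counts in any library and were not tested. Lgals5 encodes galectin-5, a galectin of rat blood cells that is closely related to galectin-9. Its adult mean was 0.225 CPM against 161 for Lgals9. The sequences just before their starts are nevertheless much alike, which is why both are shown. RefSeq (build GRCr8, 5′ to 3′) gives the 250 bases upstream of each start, Lgals9 at chr10:64428071-64428320 and Lgals5 at chr10:64355138-64355387, both on the minus strand. Capitals mark the longest run that is the same in both, 82 bases long.
Lgals9: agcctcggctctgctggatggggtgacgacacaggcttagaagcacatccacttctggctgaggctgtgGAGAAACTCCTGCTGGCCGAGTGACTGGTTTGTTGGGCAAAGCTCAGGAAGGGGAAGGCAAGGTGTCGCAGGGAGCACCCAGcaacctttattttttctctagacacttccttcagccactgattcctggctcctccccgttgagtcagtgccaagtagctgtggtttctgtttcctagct
Lgals5: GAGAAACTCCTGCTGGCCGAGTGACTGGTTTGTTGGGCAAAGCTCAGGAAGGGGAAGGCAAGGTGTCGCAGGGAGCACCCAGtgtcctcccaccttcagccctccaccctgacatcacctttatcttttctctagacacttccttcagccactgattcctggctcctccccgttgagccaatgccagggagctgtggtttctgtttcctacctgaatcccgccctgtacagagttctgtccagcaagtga
Aligned end to end, 175 of the 250 bases were identical (70.0%), where 532 pairs of upstream sequences taken across different lectin groups had 45.6 to 65.6% (median 56.8%). This pair was chosen after its values were seen. The counting command set no option for reads with several alignments, which featureCounts then leaves out, so the low Lgals5 counts are uncertain where exons are near-identical.

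Genes of the asialoglycoprotein receptor family bind terminal galactose and N-acetylgalactosamine. Clec10a, the macrophage galactose-type lectin, and Asgr2, a subunit best known from the hepatocyte receptor, had the largest differences of the family. Clec10a (chromosome 10, 56764927 to 56769437) had 1, 1 and 0 counts in the fetal libraries. Its level was 1.87, 1.86 and 1.88 CPM in the neonatal and 357, 340.4 and 274 CPM in the adult libraries, without overlap between ages. Neonatal cells were 56.1-fold above fetal cells, with a 95% counting interval of 15.1 to 469 (edgeR adjusted p = 2.59e-05). From neonatal to adult cells Clec10a rose by a further 7.43 on the log2 scale (SE 0.154, edgeR adjusted p = 2.16e-09). Among the C-type lectins under the naming rule, Clec10a had the highest adult level per kilobase of exon. It was at 218 CPM per kilobase against 57.6 for the next, Clec4a3.

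Asgr2 (chromosome 10, 56710489 to 56723601) was at 0 counts in all fetal libraries and at 3, 6 and 3 counts in the neonatal ones. Adult libraries held 86.0, 73.2 and 69.7 CPM. The fetal level was exceeded at least 1.41-fold in neonatal and at least 505-fold in adult cells, counted against a floor of 3 counts per fetal library. Adult against neonatal cells differed by 8.41 on the log2 scale (SE 0.192), a description only. Asgr1, the partner subunit in the liver receptor, lies within the same 107 kb of chromosome 10 and had 0, 6 and 3 counts in the adult libraries. Hepatocyte markers beside Asgr2 were mixed: Alb, Ttr, Serpina1 and Fgb were at 0 in every adult library, and Tf, which other cells also make, was at 154, 149.7 and 179 CPM. Clec4f, the Kupffer cell lectin of this family, had 0 counts in all 9 libraries, which at 3 counts allows up to 0.230 CPM in the shallowest (counting error only).

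Receptors of the dectin-1 cluster on chromosome 4 sense β-glucans and dead cells. Clec7a (dectin-1, chromosome 4, 163216162 to 163227242), the β-glucan receptor, was at 0.216, 0.132 and 0.478 CPM in fetal, 3.08, 2.23 and 3.50 in neonatal and 73.0, 72.2 and 67.7 in adult libraries. The ages did not overlap. Clec7a rose from fetal to neonatal cells (log2 fold change 3.40, SE 0.326, edgeR adjusted p = 0.000115) and from neonatal to adult cells (log2 fold change 4.61, SE 0.195, edgeR adjusted p = 1.36e-07). Clec12a, an inhibitory receptor for uric acid crystals, was at 0.324, 0.0441 and 0.478 CPM in fetal, 1.6, 1.39 and 1.42 in neonatal and 28.0, 29.8 and 36.0 in adult libraries, also without overlap. Its differences were 2.42 (SE 0.440) at the first and 4.40 (SE 0.297) at the second step on the log2 scale (edgeR adjusted p = 0.00317 and 2.33e-06). The genes between these in the cluster were near 0: Clec12b, Clec1b, Clec9a and Clec1a had at most 9 counts in a library. Clec9a, a receptor of cross-presenting dendritic cells, had 9, 3 and 5 counts in the adult libraries and 0 in all others. The 6 dendritic cell markers summed to 17.5 to 19.6 CPM in fetal, 18.0 to 22.4 in neonatal and 17.5 to 24.1 in adult libraries. Of the 4 tested, Ccr7 and Batf3 were called higher and Zbtb46 lower in adult than in neonatal cells, and Itgae was not called. Over all tested genes 31.6% were called higher and 31.8% lower in that comparison. Flt3 and Xcr1 were at 0 in every fetal and neonatal library and at means of 0.0241 and 0.101 CPM in adult cells. Their part in the Clec9a counts was not tested.

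Clec5a (MDL-1), which signals through the adaptor Tyrobp and lies elsewhere on chromosome 4 (68810891 to 68819872), measured 0.0540, 0.220 and 0.744 CPM in fetal, 2.70, 2.56 and 3.11 in neonatal and 56.6, 66.6 and 80.5 in adult libraries. The ages did not overlap. It rose at both steps (neonatal against fetal: log2 fold change 3.03, SE 0.462, edgeR adjusted p = 0.00149; adult against neonatal: log2 fold change 4.61, SE 0.290, edgeR adjusted p = 1.83e-06). Fetal replicate 3 had the highest fetal level of Clec5a, Clec7a and Clec12a. Without it the neonatal-to-fetal differences were 4.18, 4.03 and 3.06, and the adult-to-fetal differences 8.79, 8.64 and 7.45 in place of 7.64, 8.01 and 6.82.

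The dectin-2 cluster holds 8 genes of the table within 483 kb of chromosome 4 (155793059 to 156276243), and 6 were tested. Clec4a1 and Clec4a3, members of the dendritic cell immunoreceptor group, were the most abundant. Clec4a1 was at 0.108, 0.0882 and 0.531 CPM in fetal, 1.21, 1.07 and 0.906 in neonatal and 36.1, 46.0 and 52.4 in adult libraries and rose at both steps (log2 2.15, SE 0.505, and 5.38, SE 0.304, edgeR adjusted p = 0.0104 and 8.27e-07). Clec4a3 was at 0.162, 0 and 0.850 CPM in fetal, 0.881, 0.325 and 0.518 in neonatal and 37.2, 48.0 and 49.3 in adult libraries. Its fetal and neonatal libraries overlapped, with fetal replicate 3 above neonatal replicates 2 and 3. The neonatal-to-fetal difference of Clec4a3 was not called (log2 0.81, SE 0.847, edgeR adjusted p = 0.48), but it was without fetal replicate 3 (log2 2.83, adjusted p 0.029, within 0.029 to 0.874 over its alternatives). Adult against neonatal cells differed by 6.29 (SE 0.526), a description only.

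Clec4a, the dendritic cell immunoreceptor with an inhibitory tail, was at 9.80, 10.8 and 11.5 CPM in adult libraries and at most 0.275 CPM in any younger one (adult against neonatal: log2 fold change 5.97, SE 0.493, a description only). Its neighbour Clec4a2 had 25, 48 and 61 counts in the adult libraries and 0, 0 and 9 in the fetal ones, so that its fetal signal came from replicate 3 alone. Clec4e (Mincle, a receptor for mycobacterial glycolipid and damaged cells) had 45, 32 and 41 adult counts, and its partner Clec4d (MCL) had 39, 28 and 18. In all neonatal libraries together Clec4e had 1 count and Clec4d 2. The adult-to-neonatal ratio was 162 for Clec4e (95% counting interval 28.4 to 6435) and 58.2 for Clec4d (15.6 to 488). These ratios are a description only, since both genes passed the filter only through the adult libraries. Clec4b2 and the pseudogene Clec6a-ps1, which lie between Clec4a and Clec4d, had at most 5 counts in a library.

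These low fetal and neonatal counts made the fitted sizes depend on single libraries. Without fetal replicate 3 the adult-to-fetal difference was 8.74 for Clec4a1, 9.12 for Clec4a3, 8.40 for Clec4a, 8.83 for Clec4a2 and 8.65 for Clec4e, against 7.54, 7.10, 6.88, 4.38 and 6.18 with all libraries. Without fetal replicate 2 it was 6.44 for Clec4a3, 6.24 for Clec4a, 3.74 for Clec4a2 and 5.59 for Clec4e. The neonatal-to-fetal difference of Clec4a1 was 3.37 without fetal replicate 3. The fitted adult-to-neonatal difference of Clec4d was 4.97 without neonatal replicate 2 and 8.21 without neonatal replicate 3, and that of Clec4e was 8.68 without neonatal replicate 3, against 5.59 and 6.85.

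**Figure D3:**
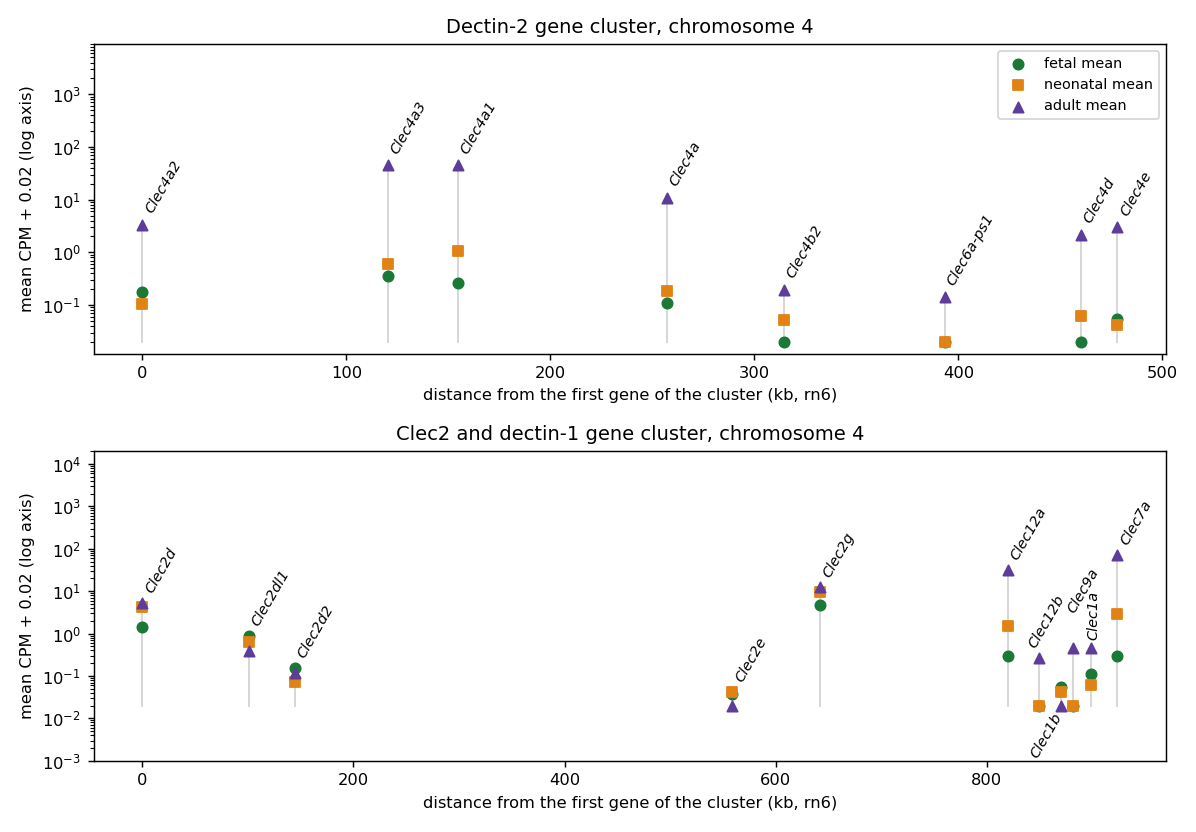
Mean CPM (n = 3, log axis after adding 0.02) of the lectin genes of both chromosome 4 clusters against their distance from the first gene of the cluster in kilobases; symbols mark the ages. In the dectin-1 cluster Clec12a and Clec7a reach 31.3 and 71.0 CPM in adult cells, while the 4 genes between them stay under 0.5 CPM.

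PU.1, a transcription factor of the myeloid lineage, recognises a purine-rich core, written here as GAGGAA and searched on both strands of the RefSeq promoters (GRCr8, 250 bases before to 50 after each start). The letters were found in 17 of the 35 lectin genes with a promoter in the RefSeq table, in 10 of 18 tested and 7 of 17 untested ones, and in 27.6% of all 33469 promoters of that length. Clec10a, Asgr2, Lgals1, Lgals3 and Siglec1 were among the lectin genes without a promoter there, so these counts do not cover them. A match is a description of letters, not a binding site. The last 100 bases before the start are shown for Clec12a, Clec4d and Clec7a. Clec12a and Clec4d hold the letters (in capitals, TTCCTC being the other strand). Clec7a, also at its highest in adult cells, holds none in its window. In that order the stretches lie at chr4:164484062-164484161 (plus strand), chr4:158275243-158275342 (plus strand) and chr4:164599828-164599927 (minus strand).
Clec12a: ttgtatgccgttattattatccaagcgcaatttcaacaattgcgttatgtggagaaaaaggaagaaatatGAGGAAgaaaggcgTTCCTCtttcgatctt
Clec4d: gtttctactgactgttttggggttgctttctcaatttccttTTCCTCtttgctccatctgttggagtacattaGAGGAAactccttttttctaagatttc
Clec7a: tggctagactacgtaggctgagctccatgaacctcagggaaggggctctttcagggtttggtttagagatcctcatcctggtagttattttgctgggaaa
Clec5a, at 67.9 CPM in adult cells, likewise had 0 matches, whereas Clec4a1 and Clec4e each had 3 in 300 bases.

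The tested siglecs, Siglec1 and Siglec10, had different fetal and neonatal levels. Siglec1 passed the filter on low counts only through the adult libraries. Siglec1 (sialoadhesin, CD169), a macrophage receptor for sialylated ligands, was at 0.216, 0.265 and 0 CPM in fetal, 0.165, 0.232 and 0.129 in neonatal and 10.2, 11.4 and 14.9 in adult libraries. Fetal and neonatal libraries overlapped near 0. Siglec1 (chromosome 3, 123612067 to 123630929) differed between adult and neonatal cells by 6.02 on the log2 scale (SE 0.483), a description only. Its adult-to-fetal difference was 6.14, or 6.73 without fetal replicate 2. Siglec10, an inhibitory siglec known to bind CD24, was at 3.46, 2.73 and 5.21 CPM in fetal, 10.5, 9.62 and 9.06 in neonatal and 25.7, 26.5 and 24.8 in adult libraries, with no overlap. It rose at both steps (log2 1.36, SE 0.203, and 1.40, SE 0.190, edgeR adjusted p = 0.00119 and 0.000172). Siglec5 had at most 8 counts and Siglec15 at most 2 in a library, and neither was tested.

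Clec11a encodes a secreted growth factor of bone marrow stroma (osteolectin). It was at 6.32, 5.69 and 2.76 CPM in fetal, 9.03, 10.9 and 11.7 in neonatal and 21.3, 19.4 and 18.3 in adult libraries and rose at both steps (log2 fold change 1.10, SE 0.258, edgeR adjusted p = 0.0106; adult against neonatal: log2 fold change 0.90, SE 0.247, edgeR adjusted p = 0.0103). Clec2d, whose product in rodents is a ligand of the NK receptor Nkrp1, was at 1.19, 2.07 and 1.06 CPM in fetal, 4.13, 4.55 and 3.69 in neonatal and 5.05, 5.20 and 5.77 in adult libraries. Clec2d rose from fetal to neonatal cells (log2 fold change 1.5, SE 0.263, edgeR adjusted p = 0.00266), and its adult-to-neonatal difference was not called (log2 0.37, edgeR adjusted p = 0.217), although every adult library was above every neonatal one.

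Clec2g, of the same ligand group, was at 6.37, 6.04 and 1.81 CPM in fetal, 10.0, 9.67 and 8.61 in neonatal and 11.3, 12.9 and 12.6 in adult libraries, with fetal replicate 3 far below the other fetal libraries. Its neonatal-to-fetal difference was 0.99 (SE 0.360, edgeR adjusted p = 0.059) and not called. It was called without fetal replicate 1 (adjusted p 0.0427), without fetal replicate 3 (0.00371) and with DESeq2 (0.0273), within 0.00371 to 0.14 over its alternatives. Its adult-to-neonatal difference of 0.38 (edgeR adjusted p = 0.367) was called only without fetal replicate 3 (0.0117) and when the fit held the 2 ages alone (0.019), within 0.0117 to 0.562. Clec2l had 26, 24 and 23 counts in adult and at most 8 in younger libraries (adult against neonatal: log2 fold change 2.60, SE 0.434, a description only). The 702-base gene models of Clec2d, Clec2dl1 and Clec2d2 are related copies, so their counts are uncertain where reads map to more than 1 of them. Clec2dl1 was not tested and had 3, 5 and 42 counts in the fetal libraries, most of them in replicate 3.

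Clec14a, a thrombomodulin-like adhesion receptor of endothelial cells, was the only tested C-type lectin or siglec that peaked in neonatal cells. It was at 5.13, 4.89 and 3.77 CPM in fetal, 27.6, 27.2 and 25.4 in neonatal and 21.0, 13.4 and 9.81 in adult libraries. No ages overlapped, and the adult libraries were the most spread. Clec14a (chromosome 6, 79303301 to 79306443) rose from fetal to neonatal cells (log2 fold change 2.54, SE 0.253, edgeR adjusted p = 0.000146) and fell from neonatal to adult cells (log2 fold change -0.86, SE 0.235, edgeR adjusted p = 0.0102). The 10 endothelial markers summed to 23.6 to 30.4 CPM in fetal, 37.0 to 40.8 in neonatal and 112 to 124 in adult libraries, and none was at 0 in an age. Much of the adult sum was Tie1 alone, at 68.6 to 72.5 CPM in adult and at most 2.14 CPM in neonatal libraries. The endothelial markers did not all differ in the same direction. Between adult and neonatal cells 5 of 9 tested endothelial markers were called higher, against 31.6% of all tested genes. Called lower were 2 (Kdr and Tek), against 31.8%. The median log2 difference of these markers was 0.57. Their part in the Clec14a difference was not tested.

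**Figure D4:**
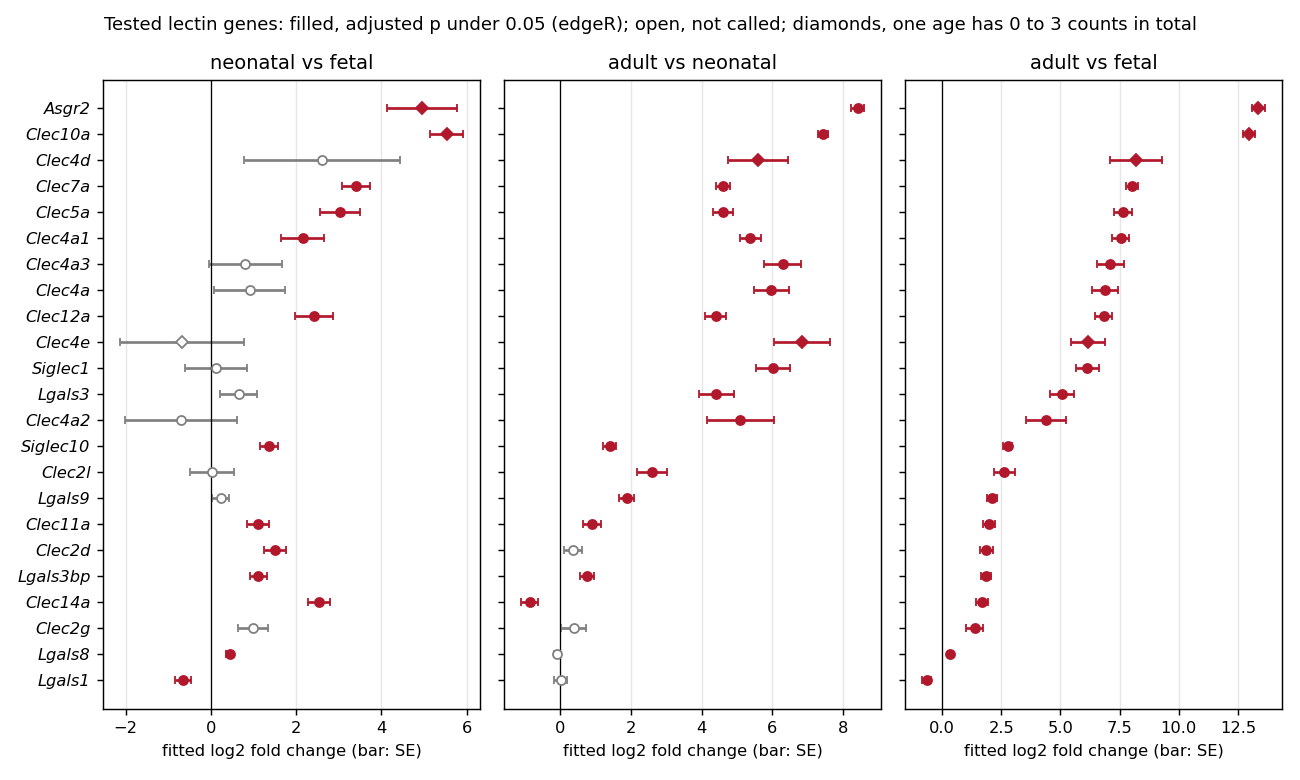
Fitted log2 fold change (x axis, whiskers SE) of the 23 tested lectin genes in the 3 pairs of ages, ordered by adult against fetal cells. Filled symbols passed adjusted p under 0.05 in edgeR, including adult differences of the 8 genes that passed the filter only through the adult libraries. Diamonds mark genes with 0 to 3 counts in total at 1 of the ages, whose fitted size depends on the prior count. Clec4d in neonatal against fetal cells is an exception, drawn as an open circle. With 0 fetal and 2 neonatal counts in all, it has no interpretable fold between those ages. Lgals1 is the only gene left of 0 for neonatal against fetal and adult against fetal among the called ones, and Clec14a for adult against neonatal.

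Members of the family without a place above were at or near 0. Cd209a, Cd209b, Cd209e and Clec4m, of the DC-SIGN family of mannose-binding receptors, had at most 5 counts in a library. Clec3a, a cartilage lectin, Clec4f and Cd209b were at 0 in all 9 libraries. Clec2e and Clec2d2 had at most 5 counts. At these depths lower levels were not detectable.

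The lectins were also set beside the macrophage markers. In neonatal cells the summed markers stood at 3.23% of their adult mean. Clec5a, Clec7a, Clec12a and Lgals3 stood at 4.11, 4.14, 4.71 and 4.67% of theirs, and Clec4a1, Clec4a, Siglec1 and Clec4a3 at 2.37, 1.55, 1.44 and 1.28%. Clec10a was at 0.577% and Asgr2 at 0.279%, the lowest of the named genes, whereas Siglec10 was at 37.9% and Clec11a at 53.7%. Asgr2, Clec4a, Siglec1 and Clec4a3 passed the filter only through the adult libraries, so their low percentages were partly fixed by it. As a share of the marker sum in the same library, Clec10a was 1.12 to 1.23% in neonatal and 4.79 to 8.92% in adult libraries. Clec12a was 0.913 to 0.951% in neonatal and 0.604 to 0.700% in adult libraries. The ranges of Clec7a, 1.46 to 2.29% and 1.18 to 1.82%, overlapped. Lgals3 was 282, 264 and 207% of the sum in fetal, 68.0 to 73.1% in neonatal and 37.5 to 65.8% in adult libraries. Fetal shares were 0.385 to 1.57% for Clec5a, 0.739 to 1.54% for Clec7a and 0.314 to 2.31% for Clec12a, on few counts. These shares are given as a description.

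The adult cultures also differed among themselves in which lectins they held most of. The macrophage markers were lowest in adult replicate 1 (81.9% of the adult mean) and highest in replicate 3 (117%). The fibroblast marker sum had the same order, with 85.6% in replicate 1 and 111% in replicate 3, and so had Lgals1, with 89.6 and 115%. Siglec1, Clec4a1, Clec4a3, Clec4a, Clec5a and Clec12a were likewise highest in replicate 3, with Siglec1 at 123% of its mean. Clec10a, Clec7a, Asgr2, Lgals3, Lgals9 and Clec14a were highest in replicate 1, where Lgals9 was at 138% and Clec14a at 143% of the adult mean, and lowest in replicate 3. Of the 19 named genes 8 were highest in replicate 1, 3 in replicate 2 and 8 in replicate 3. With 3 libraries this is a description without a test.

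**Figure D5:**
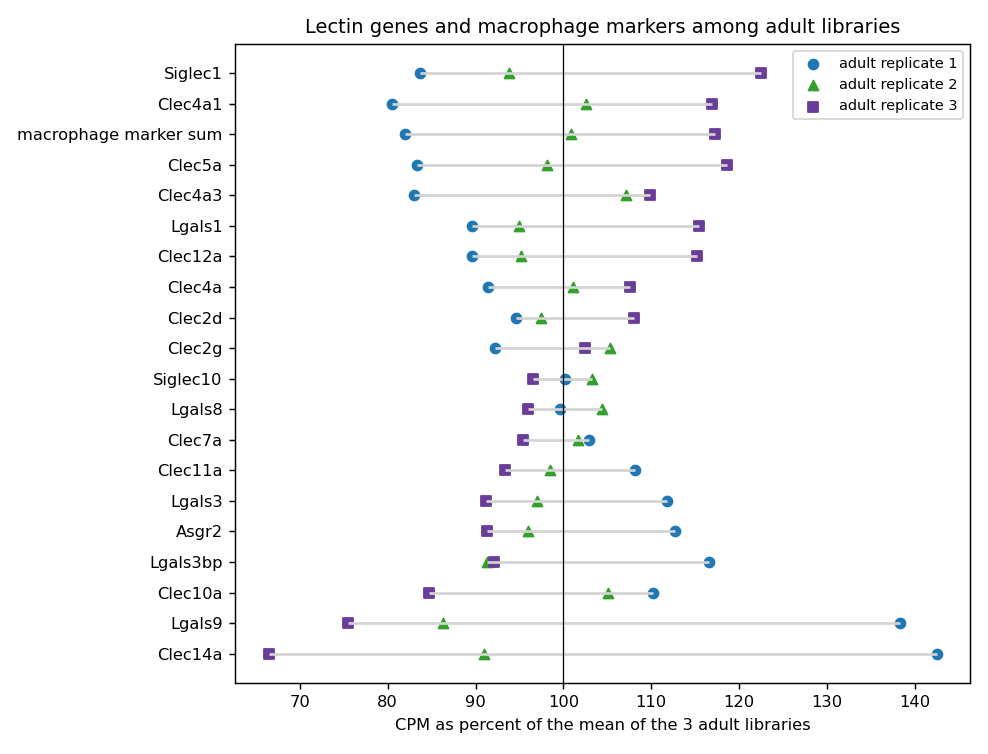
Level of the 19 named lectin genes and of the sum of 12 macrophage markers in each adult library, as a percent of the mean of the 3 adult libraries (x axis). Siglec1, Clec4a1 and Clec5a follow the order of the macrophage marker sum, and Clec10a, Lgals9 and Clec14a have the reverse order.

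Genes that act with these lectins were taken from 4 lists. Their counts stand against 63.5% of all tested genes called between adult and neonatal cells (31.6% higher, 31.8% lower). Between neonatal and fetal cells 36.3% were called (18.3% higher, 18.0% lower). In the list of lectin receptor signalling (adaptors, kinases and phosphatases, 17 tested), 14 were called higher and 2 lower in adult than in neonatal cells, with a median log2 difference of 4.38, and 7 higher and 1 lower in neonatal than in fetal cells. The kinase Lyn rose from 33.3 ± 1.01 to 183 ± 14.4 CPM between neonatal and adult cells (edgeR adjusted p = 8.65e-08). Plcg2, a phospholipase downstream of Syk, rose from 4.97 ± 0.728 to 10.7 ± 0.861 CPM from fetal to neonatal cells (edgeR adjusted p = 0.000307).

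Lectins whose symbols lie outside the naming rule (14 of 25 tested) included 8 called higher and 1 lower in adult than in neonatal cells, with a median log2 difference of 0.66. Cd302, a C-type lectin of phagocytes, rose from 4.96 ± 1.69 CPM in fetal to 28.6 ± 0.226 in neonatal (edgeR adjusted p = 0.000111) and 178 ± 34.7 in adult cells (7.94e-06). Lman1, a cargo lectin of the secretory pathway, fell from 203 ± 3.93 to 113 ± 2.33 CPM between neonatal and adult cells (edgeR adjusted p = 1.52e-05). Cd93, a relative of Clec14a, rose from 6.94 ± 1.38 to 27.4 ± 2.06 CPM from fetal to neonatal cells (edgeR adjusted p = 0.000139).

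In the sialic acid pathway, which makes siglec ligands, 8 of 18 tested genes were called higher and 5 lower in adult than in neonatal cells (median log2 -0.09; 63.5% of all genes were called), and 3 higher and 2 lower in neonatal than in fetal cells. The sialyltransferase St6galnac3 fell from 8.26 ± 0.431 to 0.944 ± 0.0483 CPM between neonatal and adult cells and St6galnac6 rose from 32.5 ± 0.712 to 55.9 ± 4.88 (edgeR adjusted p = 3.32e-06 and 2.98e-05). From fetal to neonatal cells St3gal4 rose from 67.8 ± 1.70 to 174 ± 1.48 CPM and the CMP-sialic acid transporter Slc35a1 from 43.1 ± 3.53 to 55.2 ± 2.55 (edgeR adjusted p = 7.01e-05 and 0.00637). Among 9 tested genes of N-glycan branching and poly-N-acetyllactosamine, which galectins bind, 4 were called higher and 0 lower in adult than in neonatal cells (median log2 0.20). Over all genes 31.6% were called higher and 31.8% lower. Mgat4b rose from 66.2 ± 1.10 to 105 ± 4.20 CPM and B3gnt2, which extends N-acetyllactosamine chains, from 41.4 ± 2.66 to 76.6 ± 11.2 (edgeR adjusted p = 9.86e-06 and 0.000128). In neonatal against fetal cells 2 were called higher and 2 lower. B3gnt2 rose from 25.8 ± 2.55 CPM at that step, and Mgat4a fell from 7.38 ± 0.637 to 3.97 ± 0.244 CPM (edgeR adjusted p = 0.00232 and 0.00367).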

How the data were processed

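Gene counts of 9 libraries were analysed as the authors deposited them. Per the file headers they were made with featureCounts 1.6.3 on an rn6 annotation with default options, so without strand. STAR 2.5.2b and Trimmomatic 0.39 are named per the submitters' processing notes. Exon lengths came from the same table. A second deposited table of normalized signal equalled the counts divided by 1 size factor per library for 100% of values (within 1e-05) and was not tested. Differences were fitted with edgeR 4.0.16 in R 4.3.3 (filterByExpr, TMM, robust quasi-likelihood, age as the only term, all 9 libraries), with Benjamini-Hochberg adjustment over 11337 genes. The fit was tested on simulated data.

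The members and lists were chosen with earlier results of these data known. Genes with a mean of at least 5 CPM at an age are named with every library. Of the other genes, those called are named. From each list of partner genes the 2 with the smallest adjusted p at each step are named, except 1 gene that is not reported here. The pairs of promoters compared and printed were chosen after they were seen. Intervals (exact Clopper-Pearson, 95%) and floors (3 counts per library) cover counting error only. Promoters came from RefSeq, 45 of 46 symbols matching that list and 35 having a promoter. Protein motifs were not analysed here. Alternatives used DESeq2 1.42.0, other scalings and filters, a replicate block, fits of 2 ages and fits without 1 library.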

Additional observations from a re-analysis of the deposited data

How the results depend on the processing

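The counts of called genes, which include those that passed the filter only through the adult libraries, stayed within 1.5 times their values under all alternatives run: 11 to 17 against 13 for neonatal and fetal, 21 to 26 against 23 for adult and fetal, and 16 to 22 against 19 for adult and neonatal cells, the low ends where calls also needed a log2 difference of 1 or more and the high ends without fetal replicate 3 or without the filter. Leaving out 1 library gave 12 to 17, 23 in each fit, and 19 to 20. The replicate block gave 13, 23 and 19, so it changed no count. Same-numbered libraries correlated between -0.0649 and 0.0521 in their deviations from the age means, and differently numbered ones between -0.0551 and 0.0797. With 3 libraries per age this cannot tell whether equal numbers mark a shared source, which the labels do not say. Scaling by library totals alone moved the median of all genes to -0.18 (neonatal against fetal) and -0.12 (adult against fetal) and the share of higher calls between neonatal and fetal cells from 50.4% to 29.0%, with 12 higher and 1 lower lectin gene under both. Over all genes, calls between neonatal and fetal cells numbered 4114 with all libraries and 2476 to 2607 without 1 neonatal library. Signs turned only for differences that were not called in any of these fits. Between neonatal and fetal cells these were Siglec1 (0.12 with all libraries; -0.0295 on library totals, -0.41 without fetal replicate 3 and -0.14 without neonatal replicate 2), Clec2l (0.03; -0.14 on library totals, -0.35, -0.21 and -0.03 without fetal replicate 2, neonatal replicate 1 or neonatal replicate 3), and, without fetal replicate 3, Clec4a2 (3.74) and Clec4e (1.80). Between adult and neonatal cells it was Lgals1 (-0.00905 without the filter, and -0.00201, -0.00554 and -0.0984 without neonatal replicate 2, neonatal replicate 3 or adult replicate 3). Over all fits without 1 library these differences ran from -0.347 to 0.403 (Clec2l in neonatal against fetal cells); -1.34 to 3.74 (Clec4a2 in neonatal against fetal cells); -2.51 to 1.80 (Clec4e in neonatal against fetal cells); -0.0984 to 0.0915 (Lgals1 in adult against neonatal cells); -0.407 to 0.713 (Siglec1 in neonatal against fetal cells). Depth limits the genes under about 10 counts a library, where Clec9a, Clec12b, Clec1a and Siglec5 were called by DESeq2 or without the filter only.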
